A study of Mus musculus with 6 samples.

Results

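The genes described here were 10 members of the machinery that prepares peptide antigens for presentation, compared between ischemia/reperfusion (I/R) and sham mouse hippocampus. They were the entries of the deposited gene table whose name was B2m, Tap1, Tap2, Tapbp, Psmb8, Psmb9, Psmb10, Cd74, Nlrc5 or Ciita, which gave 10 of 41386 genes. The highly polymorphic H2 genes, which encode the presenting chains themselves, were left out because reads of C57BL/6 mice had been counted against the annotation of another strain, BALB/cJ. The 10 genes were counted against that annotation too, and its effect on their levels was not tested. All 10 were among the 18569 genes that passed the filter on low counts.

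The libraries were bulk RNA-seq of the ipsilateral hippocampus of mice at 56 days of age, labelled C57BL/6 and, per the study's methods, male C57BL/6J, with total counts of 37493042 to 44788547 per library. In the 3 I/R libraries (labelled IR24) the middle cerebral artery had been occluded for 1.5 h and reperfused for 24 h, and in the 3 sham libraries the same operation was done with the filament left out. Per the study's methods each replicate was made from several pooled hippocampi, so p-values rest on how pools vary, which is not how single animals vary. Fewer cells of a type and less RNA per cell cannot be told apart in such samples, for any gene below.

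Major histocompatibility complex (MHC) class I molecules show fragments of proteins made inside a cell to cytotoxic T cells. The fragments are cut by the proteasome, whose 3 inducible catalytic subunits form the immunoproteasome, and are pumped into the endoplasmic reticulum by the transporter TAP, where tapasin helps to load them onto a class I chain held by beta-2-microglobulin. MHC class II molecules present material taken up from outside, and the invariant chain CD74 guards their groove until it is degraded in endosomes. NLRC5 and CIITA are the related transactivators of class I and class II genes, and both routes are held low in the healthy brain and are inducible by interferons.

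Of the 10 genes, 7 were called higher in I/R, 0 were called lower and 3 were not called. A call needed an adjusted p under 0.05 in edgeR's quasi-likelihood test and a fold change over 1.2. Over all genes tested, 21.8% were called higher and 19.9% lower by the same rule. The median log2 fold change (I/R over sham) of the 10 genes was 1.03, beside 0.03 for all genes tested. The I/R libraries lay wholly above the sham libraries for 9 of the 10, and for 29.3% of all genes. Both transporter genes, tapasin, beta-2-microglobulin, Psmb8, Cd74 and Nlrc5 rose, while Psmb9, Psmb10 and Ciita did not pass the test.

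**Figure D1:**
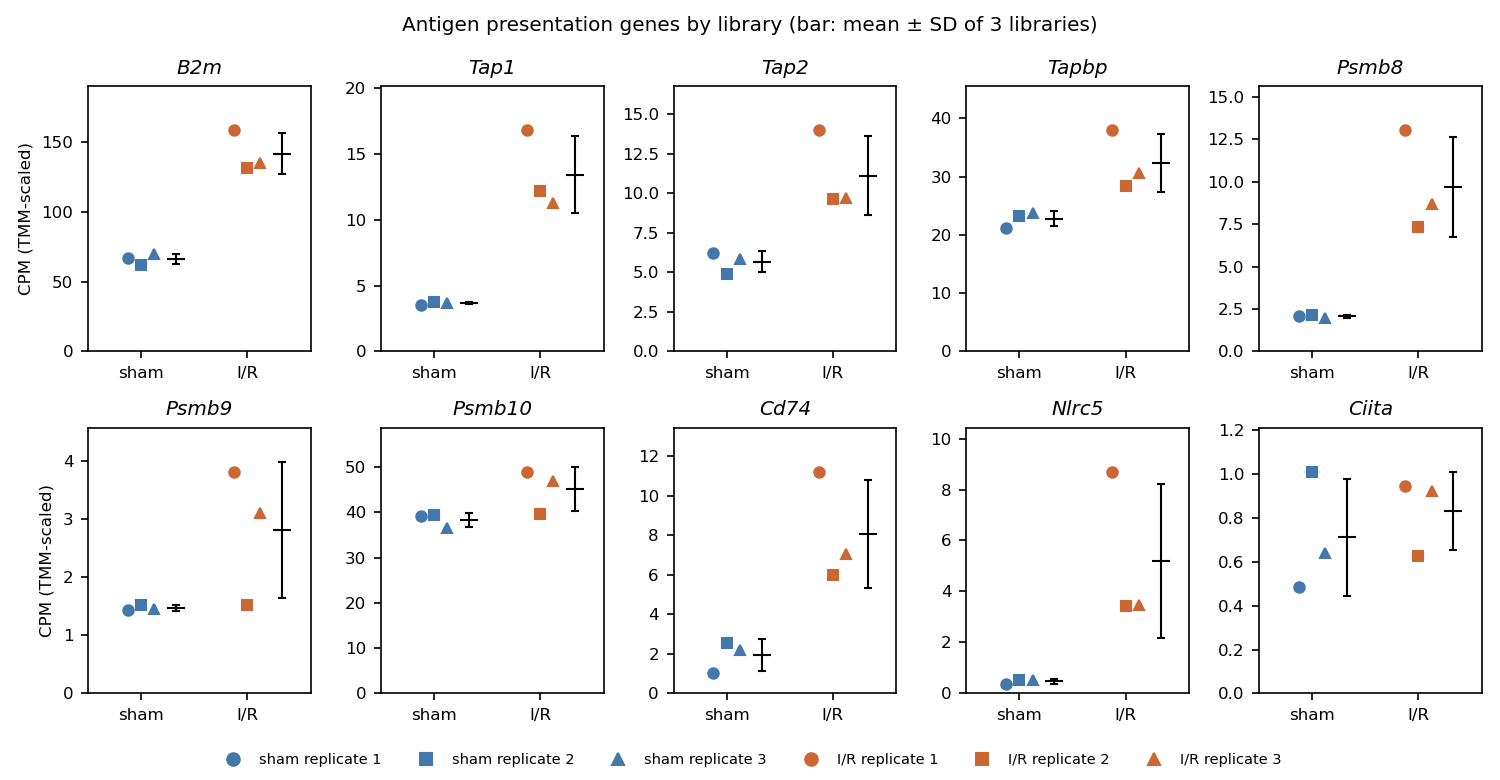
Level of each gene in CPM (counts relative to a scaled library size) in the 3 sham and 3 I/R libraries, with the mean and SD beside each group, on linear axes that start at 0. The groups are apart for 9 genes, though by almost nothing for Psmb9 and Psmb10, where I/R replicate 2 lies at the sham level, and Ciita overlaps.

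The stretch around the start of 3 of the genes called higher is shown because they rose together and because the B2m and Tap1 promoters are textbook targets of the interferon and NLRC5 routes. Each is the RefSeq promoter window on GRCm38.p6, from 250 bases before to 50 bases after the start, in the direction of transcription. B2m is at chr2:122147437-122147736 (plus strand), Tap1 at chr17:34187306-34187605 (plus strand) and Psmb8 at chr17:34197945-34198244 (plus strand). Capitals mark every match, on either strand, to 5 motifs: TTCNNNGAA (a gamma-activated site, GAS), GAAANNGAA (bound by interferon regulatory factors), GGANTTTCC (kappa B), ATTGG (the Y box core, bound by NF-Y) and TGACG (the X2 box core, bound by CREB and ATF factors).
B2m: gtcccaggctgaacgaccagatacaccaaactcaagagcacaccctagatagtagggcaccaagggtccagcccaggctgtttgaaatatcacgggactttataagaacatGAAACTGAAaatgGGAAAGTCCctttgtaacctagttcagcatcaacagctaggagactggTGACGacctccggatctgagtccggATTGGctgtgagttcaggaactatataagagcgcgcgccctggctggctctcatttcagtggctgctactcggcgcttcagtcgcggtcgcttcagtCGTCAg
Tap1: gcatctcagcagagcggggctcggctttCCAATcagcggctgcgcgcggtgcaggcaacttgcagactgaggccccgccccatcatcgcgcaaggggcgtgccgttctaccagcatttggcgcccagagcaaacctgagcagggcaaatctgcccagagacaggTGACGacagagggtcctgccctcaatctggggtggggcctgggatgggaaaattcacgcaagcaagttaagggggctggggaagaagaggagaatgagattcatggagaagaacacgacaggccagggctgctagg
Psmb8: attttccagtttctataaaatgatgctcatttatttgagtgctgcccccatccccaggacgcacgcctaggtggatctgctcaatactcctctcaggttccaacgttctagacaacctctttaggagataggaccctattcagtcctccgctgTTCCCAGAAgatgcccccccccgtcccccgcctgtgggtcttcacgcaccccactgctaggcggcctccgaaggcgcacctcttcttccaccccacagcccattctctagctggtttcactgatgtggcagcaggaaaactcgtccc

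No matches overlapped one another in these windows. In the B2m window the interferon regulatory factor motif lay from -139 to -131 and the kappa B motif from -126 to -118, counted from the start, followed by an X2 core from -78 to -74 and a Y core from -53 to -49, and a second X2 core lay at 45 to 49. The Psmb8 window held the GAS letters from -97 to -89 and none of the other 4 motifs. The Tap1 window held 1 Y core and 1 X2 core. Psmb9 is transcribed away from Tap1, its window shares 275 bases with that of Tap1, and it also held 1 of each. Tapbp held 2 Y cores and Psmb10 none of the 5 motifs. Over 32851 RefSeq promoter windows of the same length, 8.30% held the GAS letters, 8.56% the interferon regulatory factor motif, 1.25% kappa B, 37.4% the Y core and 20.8% the X2 core. A match describes the letters only, and windows of 6 of the 10 genes were searched. No single window was matched for Tap2, Nlrc5 and Ciita, and Cd74 was left out of the search.

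All 4 peptide-loading genes of the class I route rose. B2m, the light chain that every class I molecule needs, stood at 158, 131 and 135 CPM in I/R replicates 1, 2 and 3, and at 67.0, 62.0 and 69.6 CPM in the sham replicates (CPM are counts relative to a library size adjusted with edgeR's trimmed mean of M-values, TMM). Every I/R library was above every sham library by a wide margin. The log2 fold change was 1.10 (SE 0.10, 95% confidence interval 0.86 to 1.33, adjusted p = 0.000398), or 2.14-fold. In BALB/cJ coordinates B2m lies on chromosome 2 from 120248516 to 120253906.

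Tap1, which encodes 1 of the 2 chains of the peptide transporter, measured 16.8, 12.2 and 11.3 CPM in I/R against 3.56, 3.74 and 3.69 CPM in sham. The sham libraries were nearly identical, and the lowest I/R library was about 3 times their level. The log2 fold change was 1.87 (SE 0.19, adjusted p = 0.000525). Tap2, which encodes the partner chain, measured 14.0, 9.66 and 9.70 CPM against 6.25, 4.92 and 5.87 CPM. Its groups did not overlap either, and its log2 fold change was 0.97 (SE 0.20, adjusted p = 0.00605), which is below 2-fold. The ratio of Tap1 to Tap2, in FPKM (a per-length measure), was 0.720, 0.759 and 0.698 in I/R libraries and 0.342, 0.456 and 0.377 in sham libraries. That log2 ratio was higher in I/R by 0.90 (SE 0.13, exact two-sided permutation p = 0.1, the smallest that 3 libraries against 3 can give). The ratio itself depends on the gene lengths used. With the longer lengths given for both genes, mean levels in I/R were 3.78 for Tap1 and 3.55 for Tap2.

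Tapbp, which encodes tapasin, the bridge between the transporter and the empty class I molecule, had the smallest of the called changes. It measured 38.0, 28.5 and 30.6 CPM in I/R against 21.3, 23.3 and 23.7 CPM in sham. The groups did not overlap, and the log2 fold change was 0.51 (SE 0.13, adjusted p = 0.0145). The call was lost without sham replicate 1 (adjusted p = 0.0640) and without sham replicate 2 (adjusted p = 0.0517). Tapbp overlaps Zbtb22 on the same strand over 3638 bases, and how reads there were assigned is not stated.

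Of the 3 inducible proteasome subunits, 1 was called. Psmb8, the inducible chymotrypsin-like subunit, was counted 593, 294 and 347 times in I/R against 81, 88 and 67 times in sham. In CPM the means were 9.69 ± 2.97 and 2.06 ± 0.109 (SD, n = 3), and the lowest I/R library was over 3 times the highest sham library. The log2 fold change was 2.23 (SE 0.24, adjusted p = 0.000700), or 4.69-fold. Psmb9, the inducible subunit that takes the place of Psmb6, was counted 173, 61 and 124 times in I/R against 56, 62 and 50 times in sham. I/R replicates 1 and 3 were high, while I/R replicate 2 was level with the highest sham library, at 1.53 CPM in both. Its log2 fold change was 0.93 (SE 0.35, 95% confidence interval 0.14 to 1.73) and it was not called (adjusted p = 0.0611). Without I/R replicate 2 it was called, with a log2 fold change of 1.21 (adjusted p = 0.0129). An unnamed gene with 1 to 8 counts overlaps Psmb9 on the same strand over 5327 bases, and how reads there were assigned is not stated. That gene also overlaps Tap1, Psmb8 and Tap2, on their opposite strand. Psmb10, the inducible subunit that takes the place of Psmb7, measured 48.9, 39.5 and 46.9 CPM in I/R against 39.2, 39.4 and 36.5 CPM in sham. I/R replicate 2 was level with sham, and the log2 fold change was 0.23 (SE 0.10, 95% confidence interval -0.01 to 0.47, adjusted p = 0.107). Psmb10 lies on chromosome 8 from 104116298 to 104118962.

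The calls on Psmb9 and Psmb10 depended on how libraries were scaled. With library size alone, without TMM factors, the median log2 fold change of all genes moved from 0.03 to 0.28. Psmb9 (adjusted p = 0.0278) and Psmb10 (adjusted p = 0.0114) were then called higher. Relative to those medians the log2 fold change of Psmb10 was 0.21 on both scales, and that of Psmb9 was 0.91 and 0.92. By that scaling 75.8% of all calls were higher, against 52.3%.

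**Figure D2:**
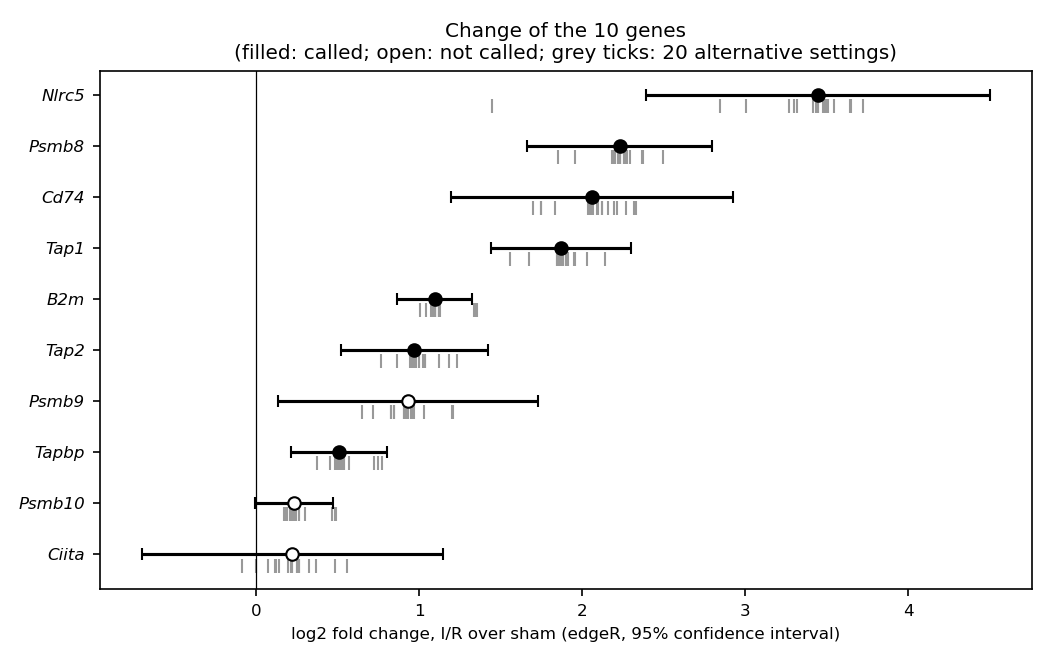
Log2 fold change of the 10 genes (I/R over sham) with 95% confidence intervals derived from the edgeR test, filled where called, and as grey ticks the same value under 20 alternative settings. The range runs from 3.45 for Nlrc5 to 0.22 for Ciita, whose interval spans 0.

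A ratio of 2 subunits inside a library does not move with library scaling, so each inducible subunit was set against the constitutive subunit whose place it takes. FPKM is per length and allows the levels of both genes to be compared. The shares depend on the lengths used, which were 1339 bases for Psmb8 and 1115 for Psmb9, while the gene lengths given were 1792 and 2884. The difference in log2 ratio between groups does not depend on them. Psmb8 made up 8.52%, 4.97% and 5.85% of the Psmb8 and Psmb5 pair in I/R, against 1.42%, 1.33% and 1.30% in sham. The share was higher in every I/R library, and the log2 ratio was higher by 2.30 (SE 0.25). Psmb5 itself had a log2 fold change of -0.11 (SE 0.08, adjusted p = 0.297). Psmb9 made up 1.53%, 0.619% and 1.25% of the Psmb9 and Psmb6 pair in I/R, against 0.845%, 0.826% and 0.874% in sham. Here the groups overlapped, since I/R replicate 2 was the lowest of all 6 libraries, and the log2 ratio differed by 0.32 (SE 0.40). That value rested on single libraries, at 0.055 without I/R replicate 1, 0.71 without I/R replicate 2 and 0.20 without I/R replicate 3. Psmb6 rose by 0.51 (SE 0.08, adjusted p = 0.00252), so that with Psmb7 2 of the 3 constitutive subunits were called higher.

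Psmb10 went the other way. It made up 32.0%, 30.6% and 34.8% of the Psmb10 and Psmb7 pair in I/R against 40.1%, 38.9% and 38.3% in sham, so that the share was lower in every I/R library. The log2 ratio differed by -0.42 (SE 0.09), while Psmb7, the constitutive partner, rose by 0.65 (SE 0.09, adjusted p = 0.00164). The exact two-sided permutation p was 0.1 for the Psmb8 and Psmb10 pairs, and 0.4 for the Psmb9 pair. In sham the shares themselves ranged from below 1% for Psmb9 to 39.1% ± 0.915 (SD, n = 3) for Psmb10.

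**Figure D3:**
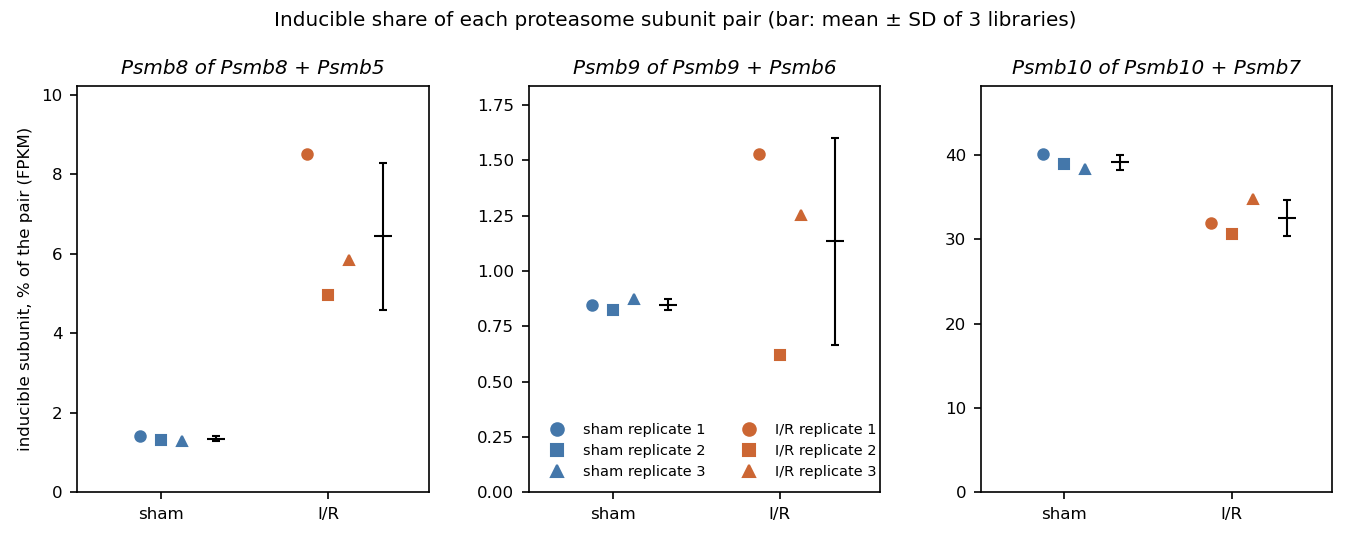
Share of the inducible subunit in the FPKM of each inducible and constitutive pair, in percent, for the 3 sham and 3 I/R libraries, with the mean and SD. The Psmb8 share is higher in every I/R library, the Psmb10 share is lower in every I/R library, and the Psmb9 shares overlap.

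Another 6 ratios between the 10 genes, those of Tap1 to Tap2 and of Nlrc5 to Ciita among them, were computed after their values were seen. The log2 ratio of Tap1 to Psmb9 was higher in I/R by 1.02 (SE 0.34), that of Psmb8 to Psmb9 by 1.36 (SE 0.23), that of Tap1 to Tapbp by 1.35 (SE 0.09) and that of Psmb8 to Psmb10 by 1.96 (SE 0.18). In each the groups did not overlap (exact two-sided permutation p = 0.1). Adjusted over all 9 ratios by the Benjamini-Hochberg method, the exact p-values were 0.1125, apart from 0.4 for Psmb9 and Psmb6.

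Psmb9, Tap1, Psmb8 and Tap2 lie side by side in that order in the MHC region of chromosome 17, and the 4 genes together span 41914 bases of the BALB/cJ assembly (Psmb9 at 33181341 to 33186667, Tap1 at 33186867 to 33196769, Psmb8 at 33197303 to 33208712 and Tap2 at 33210362 to 33223254). Only 199 bases separate the ends of Psmb9 and Tap1 that hold their starts. Across this one short stretch the log2 fold changes were 0.93, 1.87, 2.23 and 0.97 in genome order, with the outer genes below the inner ones. Tapbp, also on chromosome 17 (32871375 to 32884905), ends 296435 bases before Psmb9.

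Of the regulators of the class I and class II routes, 1 rose. Nlrc5, the class I transactivator, was counted 395, 137 and 138 times in I/R against 14, 22 and 18 times in sham. These were 8.68, 3.43 and 3.45 CPM against 0.359, 0.541 and 0.523 CPM, so the lowest I/R library was over 6 times the highest sham library. The log2 fold change was 3.45 (SE 0.46, 95% confidence interval 2.39 to 4.50, adjusted p = 0.00129), or 10.9-fold, the largest of the 10. I/R replicate 1 stood apart, and leaving it out gave a log2 fold change of 2.85, which was still called. On the scale of log2(FPKM + 1), which compresses low genes, it was 1.45. Nlrc5 lies on chromosome 8 from 92249788 to 92305101.

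Ciita, the class II transactivator, was counted 43, 25 and 37 times in I/R against 19, 41 and 22 times in sham. The groups overlapped, with sham replicate 2 the highest library of all on the CPM scale. The log2 fold change was 0.22 (SE 0.40, adjusted p = 0.685), and its 95% confidence interval ran from -0.70 to 1.15. A rise of 2-fold lies inside that interval, so at these counts it could not be told from no change. Ciita, on chromosome 16 from 7017960 to 7067984, overlaps Dexi over 27048 bases on the opposite strand, at 947 to 1951 counts for Dexi, and whether counting used strand is not stated. The log2 ratio of Nlrc5 to Ciita was higher in I/R by 3.06 (SE 0.42, exact two-sided permutation p = 0.1). In FPKM the 2 regulators were at similar levels in sham, 0.182 ± 0.0378 and 0.150 ± 0.0556 (SD, n = 3), and at 2.42 ± 1.54 and 0.211 ± 0.0507 in I/R.

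Cd74, the invariant chain of class II molecules, was counted 509, 239 and 281 times in I/R against 40, 104 and 76 times in sham. All I/R libraries were above all sham libraries, and the sham libraries were themselves spread over more than 2-fold. In CPM these were 11.2, 5.98 and 7.03 against 1.02, 2.56 and 2.21, and the log2 fold change was 2.06 (SE 0.38, adjusted p = 0.00403). Cd74 thus rose in libraries in which its transactivator Ciita did not pass the test. An unnamed gene on the opposite strand spans Cd74 (chromosome 18, 58178513 to 58187977), with 754 to 1361 counts.

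On the per-length FPKM scale, levels in I/R ran in the order B2m at 180 ± 27.5 (SD, n = 3), Psmb10 at 38.9 ± 5.56, Tapbp at 33.5 ± 6.79, Tap2 at 8.62 ± 2.37, Psmb8 at 7.97 ± 2.84, Cd74 at 6.65 ± 2.60, Tap1 at 6.25 ± 1.68, Psmb9 at 2.78 ± 1.24, Nlrc5 and Ciita. Psmb10 and Tapbp lay within their spread of one another, as did the 4 genes from Tap2 to Tap1, and Psmb9 and Nlrc5. In sham, B2m at 70.5 ± 4.56, Psmb10 at 27.6 ± 1.09 and Tapbp at 19.7 ± 1.06 also came first. The next was Tap2 at 3.67 ± 0.467, while Tap1 at 1.42, Psmb8 at 1.41 and Cd74 at 1.32 were level. The genes with the highest levels in sham were thus not those with the largest changes. The FPKM of several genes used a shorter length than the length given in the table. With the table's lengths the places of Cd74, Tap1 and Tap2 in the order changed, Nlrc5 and Ciita changed places in sham, and those of B2m, Psmb10, Tapbp and Psmb9 did not move.

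Within I/R, replicate 1 was the highest library for all 10 genes, and replicate 2 was the lowest for 9 of them and replicate 3 for Tap1. Without replicate 1, 7 of the 10 were still called. Replicate 1 also had the highest sums of several marker lists. Summed markers of monocytes and macrophages stood at 335, 172 and 198 CPM in I/R replicates 1, 2 and 3 and at 98.2 to 108 CPM in sham, and 6 of 7 tested markers were called higher, Fn1 (log2 fold change 1.02) and Lyz2 (2.21) among them. Most of each sum was Fn1 alone, at 267, 147 and 165 CPM in I/R and 92.3 to 100 CPM in sham. Border macrophage markers stood at 72.5, 50.7 and 41.5 CPM against 10.6 to 12.5 CPM (6 of 7 higher), with Ms4a6c up by 4.76 and Mrc1 by 1.22. Neutrophil markers stood at 32.3, 8.31 and 6.50 CPM against 0.407 to 1.64 CPM (3 of 4 higher), with S100a8 up by 4.66 and S100a9 by 3.78, although the defining marker Ly6g had at most 1 count. Endothelial markers stood at 881, 620 and 508 CPM against 249 to 265 CPM, with all 8 higher, Flt1 by 0.72 and Ly6a by 2.61. The part of these cells in the changes of the 10 genes was not tested.

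Microglial markers as a whole stood at 282 to 388 CPM in I/R and 278 to 314 CPM in sham, with 4 of 10 called higher and 4 lower. Among them Csf1r was at 0.23 and not called, and P2ry12, a marker of resting microglia, fell by 1.67 on the log2 scale. Of the professional antigen-presenting cells, dendritic cell markers stood at 16.0 to 17.8 CPM in I/R against 19.6 to 20.2 CPM in sham, with 0 of 4 tested markers called higher and 2 lower (Flt3 at -1.57, and Zbtb46 not called at 0.33). Batf3, not called either, was at 0.79 with no overlap of the groups. Of the dendritic cell markers that were not tested, Ccr7 was counted 30, 17 and 6 times in I/R against 1, 1 and 0 times in sham, and Xcr1 had at most 2 counts. B cell markers stood at 0.750 to 1.30 CPM against 0.959 to 1.06 CPM, with 0 of 2 called (Cd79a at -0.14 and Pax5 at -0.26), and Ms4a1 had at most 5 counts in any library. Markers of T and NK cells stood at 3.50 to 4.17 CPM against 0.959 to 2.33 CPM. Lck alone could be tested there and rose by 1.21, while Cd4 had at most 14 counts, Cd3e had at most 2 counts and Cd8a at most 3.

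Markers of the labelled tissue were present in every library. Hippocampal markers were at 276, 644 and 658 CPM in I/R and 1138 to 1171 CPM in sham (6 of 8 called lower, and the most abundant, Neurod2 at -0.66 and Neurod6 at -1.42, not called), neuronal markers at 2420, 5008 and 5654 CPM against 12391 to 12652 CPM (7 of 7 lower, Camk2a at -2.07 and Snap25 at -1.30), and astrocyte markers at 2649 to 3355 CPM against 4944 to 5203 CPM (1 higher and 4 lower of 6, Slc1a2 at -0.96 and Aldoc at -0.57). Choroid plexus markers differed between libraries within both groups. They stood at 1615, 3632 and 34.0 CPM in I/R and at 36.7, 2712 and 4470 CPM in sham, with 0 of 8 called (Ttr at -0.40 and Kl at -1.57). Comparing only libraries rich in them (I/R replicates 1 and 2, sham replicates 2 and 3), the log2 ratio of mean CPM was 1.14 for B2m, 1.96 for Tap1, 2.31 for Psmb8, 1.85 for Cd74 and 3.51 for Nlrc5. Between the pair of libraries poor in them (I/R replicate 3, sham replicate 1) these were 1.01, 1.66, 2.06, 2.78 and 3.27. The direction of these genes was the same in both comparisons. The second has no replicates, so its spread is unknown, and the part of choroid plexus RNA was not tested. Tapbp (0.50 and 0.52) and Psmb10 (0.22 and 0.26) changed little between the comparisons. Tap2 was at 1.13 and 0.63, Psmb9 at 0.84 and 1.11, and Ciita at -0.07 and 0.93.

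**Figure D4:**
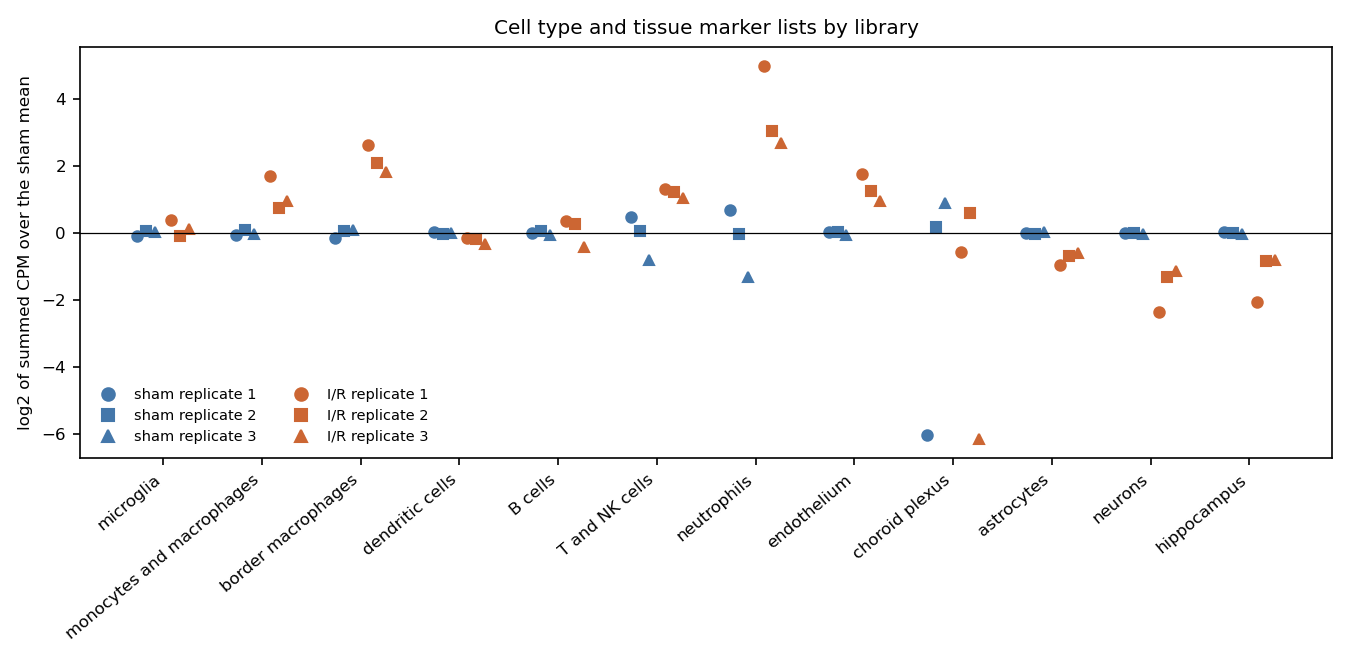
Summed CPM of each marker list in each library, as log2 of its ratio to the mean of the 3 sham libraries. I/R replicate 1 is the highest library for monocyte, border macrophage, neutrophil and endothelial markers and the lowest for neurons, and choroid plexus markers are very low in I/R replicate 3 and sham replicate 1.

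The other genes of the pathway were taken as 62 genes in 8 lists, of which 57 were in the table and 54 were tested. Of these, 28 were called higher, 3 lower and 23 were not called, with a median log2 fold change of 0.45. The shares for all genes tested were 21.8% higher and 19.9% lower. The median was lowest for the partners of the transactivators, at -0.11, and highest for co-stimulation and MHC-like molecules, at 1.83. Next came the class II proteases, at 1.09.

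Of 5 genes for proteasome activators and assembly, 3 rose and 2 did not pass the test. The interferon-inducible activator PA28 has 2 kinds of chain, of which 1 was called. Psme2 was counted 1953, 1370 and 1369 times in I/R against 619, 690 and 575 times in sham, and rose by 1.17 (SE 0.12, adjusted p = 0.000552). Psme1 had a log2 fold change of 0.14 (SE 0.10, adjusted p = 0.307). Psme4, another activator, rose by 0.79, and Pomp, which assembles new proteasomes, by 0.38, while Psme3 was at 0.15 (adjusted p = 0.190).

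In the endoplasmic reticulum, 4 of 7 genes of class I folding and peptide trimming rose. They were Hspa5 (1.24 on the log2 scale), a chaperone induced by unfolded proteins, Erap1 (0.82), which trims peptides, Tapbpl (0.67), a relative of tapasin, and Pdia3 (0.45), the disulfide isomerase of the loading complex. Calr, the chaperone calreticulin of that complex, had a log2 fold change of 0.32 (SE 0.17, adjusted p = 0.165). On the class II side, 6 of 7 endosomal genes rose, with a median log2 fold change of 1.09. Ifi30, the thiol reductase that unfolds antigens, rose by 2.67 (SE 0.26), Ctsl by 1.70, Ctss, the protease that removes the last part of the invariant chain, by 1.14 and Lgmn, an endosomal protease, by 1.09. These rises stood beside that of Cd74.

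Of 7 tested DNA-binding partners of the transactivators, Nfya, a subunit of the Y box binding complex, rose by 0.56 (SE 0.13, adjusted p = 0.0119), Rfx5, a subunit of the X box binding complex, fell by 0.33 (SE 0.11, adjusted p = 0.0427) and 5 were not called, Rfxank (0.22) and Nfyc (0.17) among them, shares near the 21.8% higher and 19.9% lower of all genes. In interferon signalling, 8 of 14 tested genes rose, 1 fell and 5 were not called. Irf9, a part of the complex that answers type I interferon, rose by 1.84 (SE 0.17, adjusted p = 0.000408), Irf8, a factor of myeloid cells, by 1.29, Irf1, an activator of Nlrc5, Tap1 and Psmb9, by 0.96 (SE 0.16) and Jak2, a kinase of the interferon gamma receptor, by 0.46. Of the chains of the interferon gamma receptor, Ifngr1 rose by 0.46 (adjusted p = 0.0136) and Ifngr2 fell by 0.64. Of the interferon genes, Ifng and Ifnb1 were looked at. Ifng had 1 count in I/R replicate 2 and 0 elsewhere, and Ifnb1 had 4 counts in I/R replicate 1 and 0 elsewhere, so neither could be tested at this depth.

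**Figure D5:**
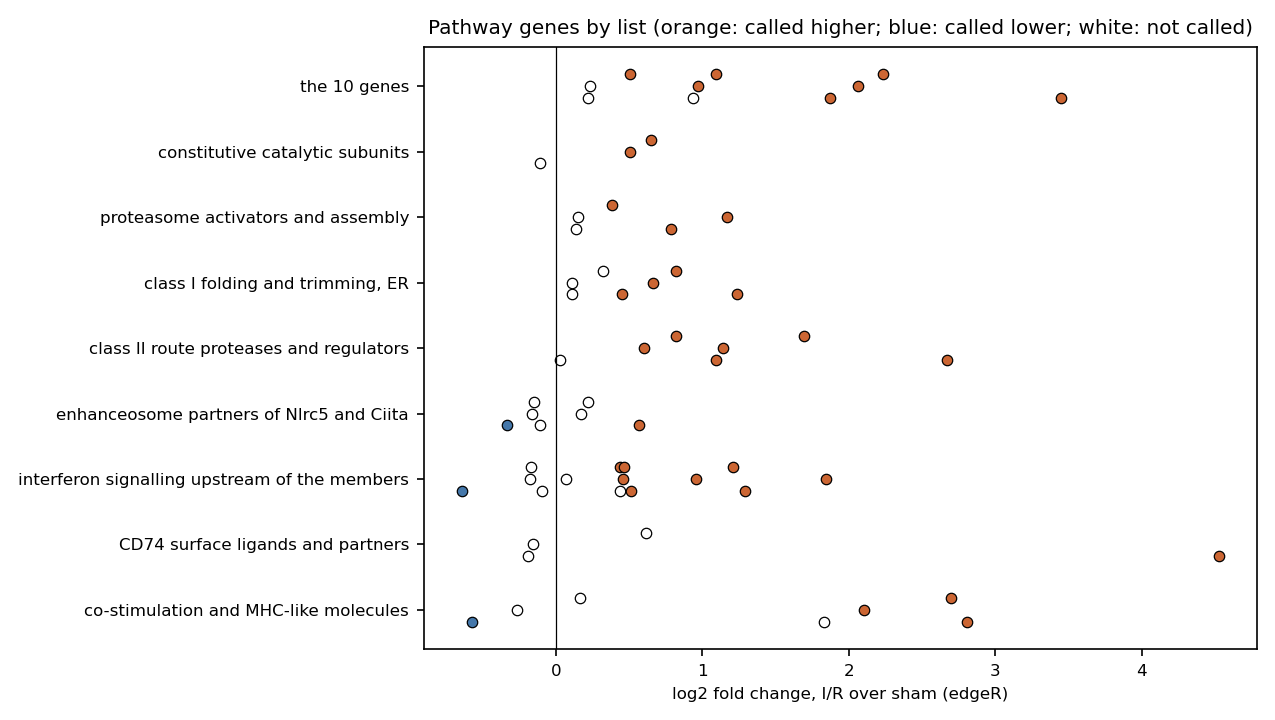
Log2 fold change (I/R over sham) of the 10 genes and of the tested genes of 8 pathway lists, orange where called higher, blue where called lower and white where not called. Of the genes of class II route proteases 6 of 7 are orange, and the partners of Nlrc5 and Ciita lie between -0.33 and 0.56.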

How the data were processed

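The deposited table gave, per gene and library, raw read counts and FPKM. The authors aligned reads with TopHat2 to an Ensembl genome and counted them per gene with HTSeq 0.6.1p2, per the study's methods. The submitters' processing notes name Bowtie 0.12.2 and mm8 instead, while gene identifiers and coordinates are those of BALB/cJ. The deposited FPKM divide counts by gene length and library total. Whether counting used strand was not given in the sources used here. The table also held the authors' own test columns, which were not used. The 41390 lines gave 41386 genes after 4 split lines were rejoined. Genes without a symbol held 4.24% to 4.74% of counts. Total counts were 37493042 to 44788547 per library. Counting error is the floor of precision for low genes (26.7% for 14 counts of Nlrc5), and intervals cover the fit's error only.

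Counts were tested with edgeR 4.0.16 (R 4.3.3): filterByExpr, trimmed mean of M-values (TMM) scaling, robust glmQLFit and glmQLFTest, no covariates, Benjamini-Hochberg adjustment over 18569 genes. A call needed adjusted p under 0.05 and fold over 1.2. The standard error (SE) is that of the log2 fold change. CPM are relative to the TMM-scaled library size. FPKM ratios were compared by exact permutation over libraries. The fit was tested on simulated data, where the share of false calls was somewhat above the adjusted threshold. Far fewer genes were changed there than were called here, so the share in these data may differ. Alternatives used DESeq2 1.42.0 and limma 3.58.1. Genes at or under 3 counts in nearly all libraries are given as counts.

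The 10 genes and all lists were chosen with earlier results of these data known. Named were the 10 genes, a set of partners (Psmb5, Psmb6, Psmb7, Psme1, Psme2, Irf1, Ctss, Calr, Mif and Cd44), the 4 tested genes of smallest adjusted p in each pathway list, and the 2 most abundant genes of each marker list. P2ry12, Ly6g, Xcr1, Ms4a1, Cd3e, Cd8a, Batf3, Ccr7, Ifngr1 and Ifngr2 were named after their values were seen. Sec61b, Marchf1, Marchf8, Atf1 and Cd1d1 were not analysed here, and a few listed genes that the rule would name are not reported here.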

Additional observations from a re-analysis of the deposited data

How the results depend on the processing

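Over 20 alternatives (scaling, count filters, DESeq2, limma, FPKM, the replicate block, a choroid plexus covariate, a stricter fold and leaving out libraries), 5 to 9 of the 10 genes were called, and B2m, Tap1, Psmb8, Cd74 and Nlrc5 were called in each. The share of all genes called higher ran from 10.2% (fold over 2, with 5 of the 10 called) to 34.1% (library size alone, with 9 called). With a fold over 2, the pathway genes called fell from 31 to 13 and all genes called from 7756 to 2760, and Tap2 and Tapbp were no longer called; the stricter rule itself removes genes of smaller change. Leaving out 1 library in turn gave 6 to 8 of the 10 genes called, 23 to 31 pathway genes and 5330 to 7976 genes in all. Leaving out both libraries with few choroid plexus counts, an alternative chosen after seeing the data, gave 6 of the 10, without Tapbp (adjusted p = 0.0894), and turned Ciita to a log2 fold change of -0.085. The cause was not tested. Psmb9 was also called by DESeq2 (adjusted p = 0.0331) and both FPKM scales (0.0466 and 0.0400), and Psmb10 by both FPKM scales (0.0135 and 0.0122). The sample titles share replicate numbers, but same-numbered deviations correlated at -0.10, 0.06 and -0.18. These values showed no pairing by number, though so few weak correlations cannot exclude it. With the replicate block 7 of the 10 genes, 27 pathway genes and 6332 genes in all were called. Leaving out 1 library in turn moved the log2 ratio of Psmb9 to Psmb6 between 0.055 and 0.71. Sham replicate 1 correlated best with I/R replicate 3 (0.27). Low counts limit Ciita, Psmb9 and sham Nlrc5.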

Other observations

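Beyond loading, T cells need co-stimulation, and 3 of 7 tested genes of that list rose, 1 fell and 3 were not called. Over all genes tested, 21.8% were called higher and 19.9% lower, so a fall of 1 in 7 is no more than the share of all genes. Cd86, which stimulates T cells through CD28, was counted 452, 273 and 327 times in I/R against 59, 60 and 29 times in sham, and rose by 2.69 on the log2 scale (SE 0.27, adjusted p = 0.000562). Cd274, which encodes the inhibitory ligand PD-L1, had 534, 322 and 334 counts against 93, 99 and 59, and rose by 2.10 (SE 0.23). Cd40 rose by 2.81 (SE 0.62, adjusted p = 0.00875) from 7, 4 and 6 counts in sham. These 3 genes were higher in every I/R library than in any sham library. Icosl, the stimulatory ligand of ICOS, was lower in every I/R library and fell by 0.57 (SE 0.14, adjusted p = 0.0133).

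CD74 is also a surface receptor for the cytokine MIF, together with CD44. Cd44 was counted 4970, 2903 and 2720 times in I/R against 141, 184 and 91 times in sham, and rose by 4.53 (SE 0.26, adjusted p = 0.000169), the largest change among all pathway genes listed. The ligand gene Mif had a log2 fold change of -0.19 (SE 0.10, adjusted p = 0.162), and its relative Ddt one of -0.16. Cxcr4, a further partner of CD74, was at 0.61 and not called (adjusted p = 0.133). Cxcr2 was counted 87, 10 and 9 times in I/R but 0 times in every sham library, did not pass the filter on low counts and was not tested, and it is also a neutrophil marker. At the RNA level Cd74 and Cd44 rose, while Mif, Ddt and Cxcr4 did not pass the test. Whether the same cells held Cd74 and Cd44 was not tested.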
